A study of Mus musculus with 12 samples.

Results

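Nr4a1, Nr4a2, Nr4a3, Npas4, Arc, Nptx2, Bdnf and Inhba are 8 protein-coding genes that neurons switch on when they are active. Their lysine crotonylation (Kcr) peaks were taken from chromatin immunoprecipitation sequencing (ChIP-seq) of mouse dorsal hippocampus with an antibody against crotonylated lysine in any protein (pan-Kcr). The genes were listed by name, and every peak in the gene body or within 50 kb of either gene end was kept. This gave 10 of the 16002 peaks in the list from trained mice and 140 of the 331236 peaks in the list from untrained mice (chromosomes 1 to 19, X and Y). Both libraries came from C57BL/6J dorsal hippocampus, about 20 mg of tissue fixed in 1% formaldehyde and sheared to 200 to 500 bp. The learning mice were trained to recognise a moved object (spatial object recognition), and the homecage mice stayed in their cages. Age, sex, time of collection and pooling of animals are not stated for these libraries. There was 1 antibody library per condition and no read depth or peak strength was given, so no difference between the lists has a replicate check and none was tested.

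The 8 genes belong to the activity-regulated programme of neurons. Nr4a1, Nr4a2 and Nr4a3 encode orphan nuclear receptors that bind DNA and regulate transcription during memory consolidation, and Npas4 encodes a transcription factor of the bHLH-PAS family that is induced by calcium entry. Arc encodes a cytoskeletal protein that controls AMPA receptor endocytosis at synapses. Nptx2 (neuronal pentraxin 2) is a secreted protein that clusters AMPA receptors, Bdnf (brain-derived neurotrophic factor) is a secreted growth factor that acts through the receptor TrkB, and Inhba encodes the activin A subunit. Many such genes carry cAMP response elements (CREs), sites for the factor CREB, whose partner CBP can add acetyl and crotonyl groups to histones.

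The starts of these genes are shown first, because the peaks are compared with them below. The RefSeq promoter table (GRCm38.p6) lists 12 starts for 6 members, 7 of them for Bdnf. Arc and Nptx2 are described by their gene ends. Each sequence runs from 250 bases before the start to 50 bases after it, 5′ to 3′ in the direction of transcription. Capitals mark the core of the CRE (TGACG or its complement CGTCA) and the TATA motif (TATAAA or its complement TTTATA), searched on both strands. The Nr4a2, Bdnf and Inhba promoters shown are the 3 that a peak overlapped, and the other Nr4a and Npas4 promoters are shown for comparison with them.
Nr4a2, chr2:57123954-57124253, minus strand: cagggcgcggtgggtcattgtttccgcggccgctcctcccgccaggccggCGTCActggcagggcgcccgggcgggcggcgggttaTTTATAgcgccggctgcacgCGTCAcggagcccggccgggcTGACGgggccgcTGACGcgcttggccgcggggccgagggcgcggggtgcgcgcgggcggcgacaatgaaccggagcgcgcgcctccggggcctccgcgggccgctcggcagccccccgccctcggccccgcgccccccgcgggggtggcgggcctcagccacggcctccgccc
Inhba, chr13:16011601-16011900, plus strand: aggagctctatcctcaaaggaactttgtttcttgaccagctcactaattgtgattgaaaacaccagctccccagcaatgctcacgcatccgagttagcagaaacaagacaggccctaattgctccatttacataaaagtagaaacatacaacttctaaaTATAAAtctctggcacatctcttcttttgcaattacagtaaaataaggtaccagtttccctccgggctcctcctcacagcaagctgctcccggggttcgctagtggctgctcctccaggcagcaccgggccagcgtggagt
Bdnf start 3, chr2:109692186-109692485, plus strand: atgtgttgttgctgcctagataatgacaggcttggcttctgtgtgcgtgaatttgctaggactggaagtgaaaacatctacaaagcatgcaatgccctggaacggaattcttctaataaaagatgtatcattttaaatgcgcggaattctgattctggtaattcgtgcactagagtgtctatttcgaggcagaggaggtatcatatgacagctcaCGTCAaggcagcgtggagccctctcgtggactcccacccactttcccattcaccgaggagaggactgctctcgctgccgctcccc
Nr4a1, chr15:101266596-101266895, plus strand: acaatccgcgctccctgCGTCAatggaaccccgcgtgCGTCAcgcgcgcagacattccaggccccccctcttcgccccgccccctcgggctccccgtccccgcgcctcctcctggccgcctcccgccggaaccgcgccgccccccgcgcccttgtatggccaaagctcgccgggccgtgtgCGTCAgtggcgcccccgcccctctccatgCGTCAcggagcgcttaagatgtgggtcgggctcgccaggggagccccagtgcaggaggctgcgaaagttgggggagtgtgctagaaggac
Nr4a3, chr4:48045055-48045354, plus strand: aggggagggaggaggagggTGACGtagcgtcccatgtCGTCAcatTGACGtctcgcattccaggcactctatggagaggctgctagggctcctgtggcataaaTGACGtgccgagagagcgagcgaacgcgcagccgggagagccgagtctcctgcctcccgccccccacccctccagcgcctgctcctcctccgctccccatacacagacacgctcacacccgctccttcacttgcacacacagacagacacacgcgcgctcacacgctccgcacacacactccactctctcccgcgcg
Npas4, chr19:4989922-4990221, minus strand: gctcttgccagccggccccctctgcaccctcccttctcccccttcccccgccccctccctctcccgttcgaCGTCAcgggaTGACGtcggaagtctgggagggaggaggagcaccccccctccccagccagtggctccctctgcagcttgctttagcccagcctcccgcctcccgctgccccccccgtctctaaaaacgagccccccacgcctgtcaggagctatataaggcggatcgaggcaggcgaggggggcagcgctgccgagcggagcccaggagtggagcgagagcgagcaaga

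CRE cores were present in the promoters of all 3 Nr4a genes, with 4 matches in each, and in the Npas4 promoter, with 2. The third Bdnf start had 1 match and the other 6 Bdnf starts and Inhba had none. Of all 32851 promoters in the table, 20.8% held this core. That share is not matched for base composition. The core contains a CG dinucleotide, and the Nr4a and Npas4 promoters held 21 to 52 of these against a median of 7 over all promoters. TATAAA was found at Nr4a2 (position -164 from the start, on the complementary strand) and Inhba (position -91), once each, against 13.6% of all promoters. Only these exact letters were searched, so variants such as tatataagg in the Npas4 promoter were not counted. Neither the full CRE (TGACGTCA, which contains the core and was present in 1.79% of all promoters) nor the Nr4a binding motif NBRE (AAAGGTCA, 1.51%) nor the E-box CACGTG (7.15%) nor the CArG box (1.63%) was found in these 12 windows. CACGAC occurred at the first Bdnf start (3.93% of all promoters) and CGTGCG at Nr4a1 (8.995%). A match describes these letters only.

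In the learning list, 2 of the 8 members had a peak in the gene body, Nr4a1 and Nr4a2 (25%, exact Clopper-Pearson 95% interval 3.19 to 65.1%). Over all 21887 protein-coding genes the share was 24.8%, and over the 9800 genes of 10 to 60 kb, the length range of 7 of the members, it was 24.5%. The members' share was therefore near the background. Extending the gene by 1 kb at both ends added no member, and the background share was then 26.9%. Within 50 kb, 7 of 8 members had a learning peak (87.5%, 47.3 to 99.7%), and only Nptx2 had none. The background share at that distance was 59.2%, inside the interval.

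In the homecage list, 7 of the 8 members had a peak in the gene body (87.5%, 95% interval 47.3 to 99.7%), again all but Nptx2. The background shares were 76.9% of all protein-coding genes and 90.5% of those of 10 to 60 kb. The count was the same with 1 kb added at both ends, where the background was 81.7%. All 8 members had a homecage peak within 50 kb, as did 96.1% of protein-coding genes. The homecage list is far longer than the learning list, so a peak in it alone is the usual case at any gene and is not a measured loss after training.

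Over the 993 kb of the 8 windows together, the learning list had 10.1 peaks per Mb (95% Poisson interval 4.83 to 18.5, counting error only), compared with 6.01 over the chromosomes. The homecage list had 141 per Mb (119 to 166), compared with 124 (both over the span between the first and last peak of each chromosome). In the learning list the whole-genome density lay inside the counting interval, and in the homecage list it also did.

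**Figure D1:**
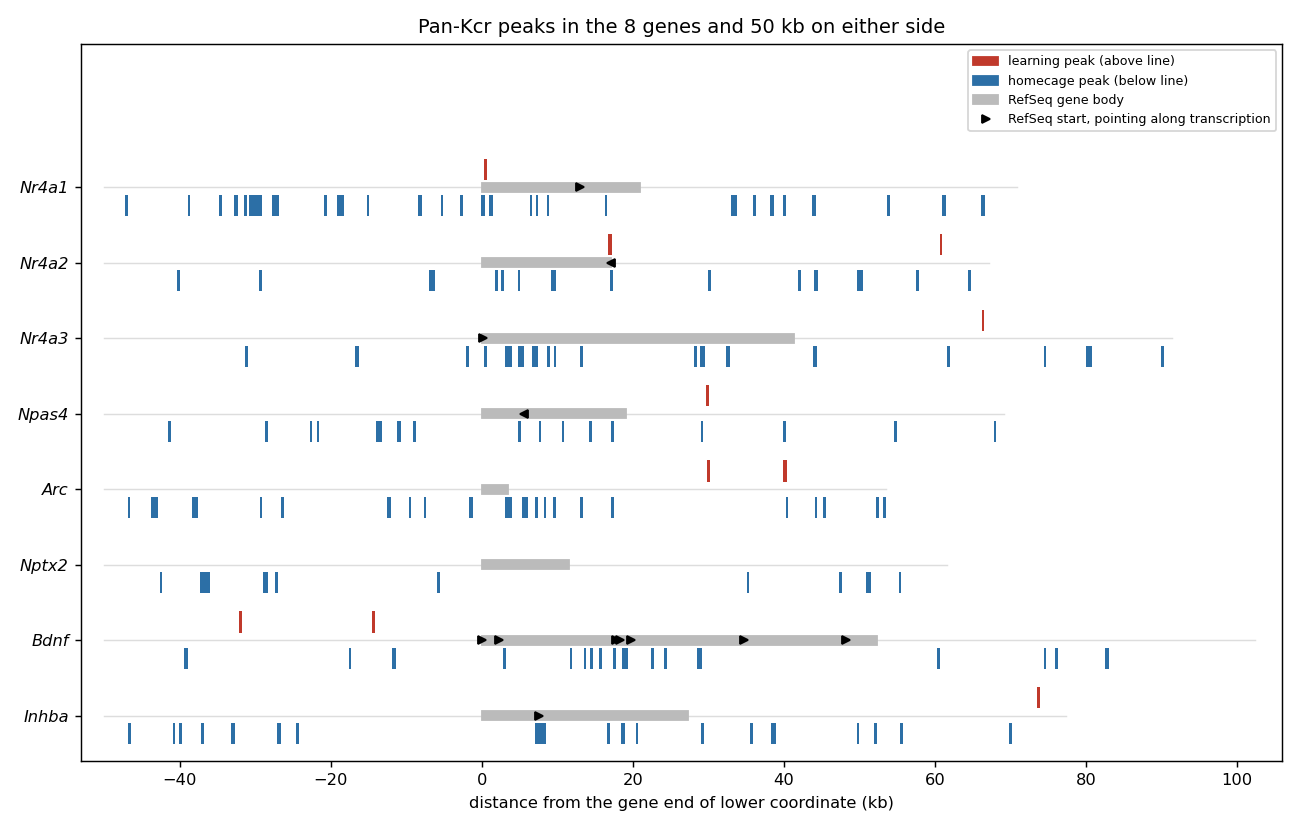
Peaks in the 8 gene bodies and 50 kb on either side, by distance in kb from the gene end of lower coordinate (x axis), 1 row per gene. Learning peaks are drawn above each line and homecage peaks below it, the narrowest drawn wider to stay visible, grey bars are RefSeq gene bodies and arrowheads are listed starts. The 10 learning peaks are spread over 7 rows, 2 of them touch a gene body, and homecage peaks are present in every row.

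Nr4a2 was the only member with a peak of both lists over a listed start. It lies on chromosome 2 (chr2:57106830-57124003, minus strand, 17174 bp). A learning peak of 490 bp (chr2:57123523-57124012) and a homecage peak of 494 bp (chr2:57123744-57124237) both covered the start. They overlapped by 269 bp, which was 54.9% of the learning peak and 54.5% of the homecage peak. The learning peak reached mostly into the gene and the homecage peak was centred closer to the start. In the Nr4a2 sequence printed above, counting from its 5′ end, the homecage peak covered bases 17 to 300 and with them all 4 CRE cores. The learning peak covered bases 242 to 300, which hold no CRE core. An uncharacterised RefSeq gene model, LOC105244150, overlaps the same gene end, so these peaks cannot be assigned to Nr4a2 alone.

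The rest of Nr4a2 held 4 further homecage peaks of 428, 176, 234 and 680 bp and no further learning peak. The second learning peak of the window (chr2:57167435-57167786, 352 bp) lay 43432 bp upstream, inside the long noncoding RNA gene BB557941. The nearest homecage peak to it was 2784 bp away. The Nr4a2 window thus held 2 learning and 14 homecage peaks, and 26.0% of protein-coding genes had fewer homecage peaks in theirs. Windows lengthen with the gene, so such ranks, here and below, are not corrected for window length.

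At Nr4a1 both lists had a peak at the outer end of the gene model and none at the listed start. The gene spans 20894 bp (chr15:101253902-101274795, plus strand), and its listed start lies inside that span. The only learning peak of the window (chr15:101254193-101254410, 218 bp) lay inside the gene near its lower end and overlapped a homecage peak of 518 bp (chr15:101253797-101254314) by 122 bp. It was 12436 bp upstream of the listed start. The homecage peak closest to that start was 259 bp wide and 3348 bp downstream of it, so no peak of either list came within 1 kb. If the gene is counted from the listed start, Nr4a2 is the only member with a learning peak in the gene body. This alternative was chosen after the data were seen.

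The Nr4a1 window had the most homecage peaks of the 8, 27 in all. Of these 6 lay in the gene, at widths of 203 to 518 bp, 13 on the side of lower coordinates and 8 on the other side. Fewer homecage peaks were present in the windows of 84.2% of protein-coding genes. The window also holds Grasp, Atg101 and Smim41, and part of Acvr1b, an activin receptor gene, so many of these peaks lie in or next to other genes.

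Nr4a3 had the largest share of its gene body under homecage peaks of the 8 members and no learning peak there. By number of peaks per 10 kb of gene it was lower (2.42) than Nr4a2 (2.91), Nr4a1 (2.87), Arc (2.87) and Npas4 (2.62). The gene spans 41370 bp (chr4:48045078-48086447, plus strand). Its 10 homecage peaks covered 12.9% of the gene, more than in 89.5% of protein-coding genes. They were gathered towards the start: 7 of the 10 began within 13 kb of it, at 72, 2826, 4639, 6463, 8449, 9284 and 12777 bp downstream. The widest of them (chr4:48048131-48049145) measured 1015 bp, and 97.1% of all homecage peaks were narrower. The first, of 425 bp (chr4:48045377-48045801), lay just beyond the printed promoter. The only learning peak of the window was 154 bp wide, 24795 bp beyond the 3′ end of the gene (chr4:48111242-48111395), with the nearest homecage peak 4411 bp away.

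At Npas4 the homecage peaks in the gene were near the usual width of that list, and the learning list had none there. The gene model spans 19087 bp (chr19:4984353-5003439, minus strand) and its listed start lies inside the span. It held 5 homecage peaks of 307, 201, 334, 398 and 426 bp, which covered 8.73% of the gene. The closest to the start (chr19:4989179-4989485) began 486 bp downstream of it. Of the 5 homecage peaks, 4 lie upstream of the listed start, within the longer gene model. The learning peak of the window (chr19:5014049-5014214) was 166 bp wide and lay 24078 bp upstream of the listed start, between Npas4 and Slc29a2. It was 502 bp from a homecage peak, the shortest such distance among the unshared learning peaks here.

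Arc is the shortest member (chr15:74669081-74672570, 3490 bp) and had 1 peak in the gene. This homecage peak of 913 bp (chr15:74672149-74673061) lay across the gene end of higher coordinate, with 422 bp inside the gene, and also reached the noncoding RNA gene Gm32994. It was wider than 95.7% of homecage peaks. A second wide homecage peak of 794 bp followed 1788 bp beyond that end, and one of 512 bp lay 1135 bp beyond the other end. The window held 21 homecage peaks, more than the windows of 67.1% of protein-coding genes. Per Mb of this short window there were 203, against an upper quartile of 164 over all protein-coding genes.

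Both learning peaks of the Arc window lay far from the gene, on the side of higher coordinates. The nearer (chr15:74698906-74699199, 294 bp) was 26336 bp away inside Gm32994, and its nearest homecage peak was 10129 bp distant, the longest such distance in the 8 windows. The other (chr15:74709017-74709497, 481 bp) was 36447 bp away across the end of Jrk, where the noncoding RNA gene 4933427E11Rik also has an end. It overlapped a homecage peak of 200 bp by 170 bp.

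Bdnf is the longest member (chr2:109674700-109727043, plus strand, 52344 bp) and uses alternative first exons spread along the gene, which is known to give its transcripts different responses to activity. It held 10 homecage peaks and no learning peak. Most of the homecage peaks lay in the stretch from chr2:109686321 to chr2:109703912, which includes the third, the fourth and the fifth listed start. The third start had a peak of 186 bp 159 bp upstream, which covered bases 1 to 92 of its printed promoter and ended before the CRE core at bases 216 to 220. A peak of 845 bp (chr2:109693265-109694109) filled most of the stretch between the fourth and the fifth start, 238 bp downstream of the former and 300 bp upstream of the latter. It was the widest peak of the Bdnf window.

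The outer Bdnf starts were farther from homecage peaks. The second start had a peak 548 bp downstream, and the first start had none within 2880 bp. The sixth and seventh starts were 5471 and 12072 bp from the nearest peak. No homecage peak lay in the 31081 bp from chr2:109703912 to chr2:109734993, which include the last part of the gene with the sixth and the seventh start. The 2 learning peaks, of 425 bp (chr2:109642515-109642939) and 298 bp (chr2:109660234-109660531), lay 31761 and 14169 bp upstream of the first start. Their nearest homecage peaks were 6669 and 2311 bp away, and no other annotated gene overlapped them.

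Nptx2 (chr5:144545887-144557478, 11592 bp) had no peak of either list in the gene or within 1 kb of it. It lay in the longest homecage gap of the 8 windows, 40589 bp between chr5:144540371 and chr5:144580960. The nearest homecage peak was 5516 bp from the gene, and the nearest learning peak 158774 bp. Its window held 9 homecage peaks, and 8.40% of protein-coding genes had fewer. The widest, 1218 bp (chr5:144508636-144509853), was 36034 bp away in the noncoding RNA gene Gm33765. Because depth is unknown, the lack of a called peak does not show that crotonylation was absent.

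Inhba had the widest peak found in any member gene. This homecage peak of 1444 bp (chr13:16011312-16012755) covered the listed start and all 300 bases of the printed promoter, and 99.3% of homecage peaks were narrower. The gene model (chr13:16004256-16031609, plus strand, 27354 bp) held 3 further homecage peaks, of 147, 557 and 147 bp, and no learning peak. The pseudogene B230303A05Rik overlaps the widest peak as well. The only learning peak of the window (chr13:16077764-16078197, 434 bp) was 46155 bp beyond the 3′ end, with its nearest homecage peak 3364 bp away.

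The listed starts were compared with those of all genes. A homecage peak overlapped 3 of the 12 promoters (25%, 95% interval 5.49 to 57.2%), those of Nr4a2, the third Bdnf start and Inhba, against 17.9% of all promoters. A homecage peak lay within 1 kb of 8 of the 12 starts (66.7%, 34.9 to 90.1%), against 45.8% of all starts, but 4 of the 8 belong to Bdnf. A learning peak overlapped 1 promoter, that of Nr4a2 (8.33%, 0.211 to 38.5%), against 4.15% of all, and no further start had one within 1 kb, against 12.4% of all. Each of these background shares lay inside the members' interval.

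**Figure D2:**
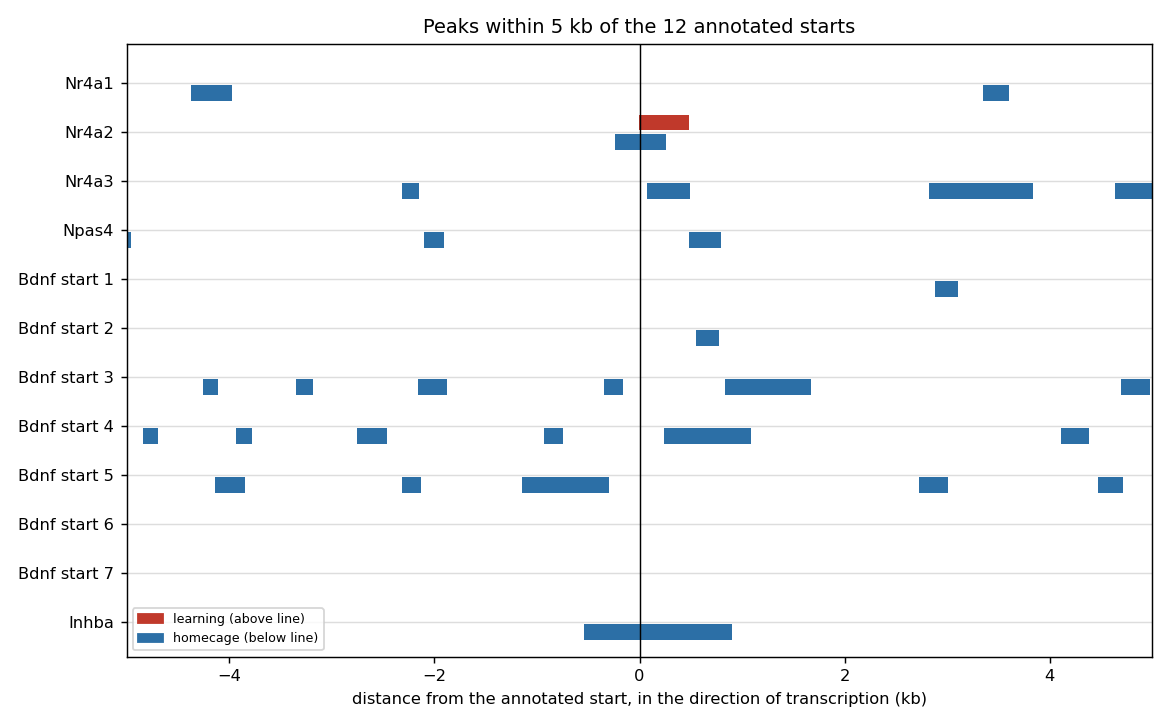
Peaks within 5 kb of the 12 listed starts of 6 members, by distance in kb from the start in the direction of transcription (x axis), learning above each line and homecage below. Both lists have a peak over the Nr4a2 start, a homecage peak of 1444 bp spans the Inhba start, and Nr4a1 and the outermost Bdnf starts (1, 6 and 7) have no peak within 1 kb.

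The base composition of the starts varied widely among the members. The promoters of the transcription factor genes were rich in CG dinucleotides, with 52 in the 300 bases at Nr4a2, 35 at Nr4a1, 26 at Nr4a3 and 21 at Npas4. The median over all promoters was 7. The Bdnf starts held 2 to 13 and Inhba held 7. Among the 8148 promoters with 21 to 67 CG dinucleotides, 11.2% had a learning peak and 30.9% a homecage peak. Among the 10310 with 0 to 3 the shares were 0.669% and 10.3%. Nr4a2, with more CG than 99.4% of promoters, was the member with a learning peak over its start. The Nr4a1, Nr4a3 and Npas4 promoters, also in the range of 21 to 67, overlapped no peak of either list. Inhba had the widest homecage peak in a member gene at a CG count at the median.

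Homecage peaks covered the bodies of most of these genes more densely than their surroundings. The gene bodies of 7 members were covered by 6.35 to 12.9% of their length, compared with a median of 4.84% over all protein-coding genes (quartiles 1.25 and 7.80%). Nptx2 was at 0. The members' median was 9.02%, and 6 of 8 were above the upper quartile of all genes. Medians above that of all genes were also seen in the lists described below, at 6.93% for other activity-regulated genes, 7.04% for partner genes and 7.53% for cell type markers. In 6 of 8 members the gene body was more densely covered than the 50 kb flanks (75%, 95% interval 34.9 to 96.8%). The exceptions were Nptx2 and Nr4a1, the latter with flanks covered by 10.5%. Over all protein-coding genes the share was 44.3%, inside that interval. It includes genes without a homecage peak in the body, which cannot exceed their flanks, and 76.9% of all genes had one. The share was not computed for genes of 10 to 60 kb.

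**Figure D3:**
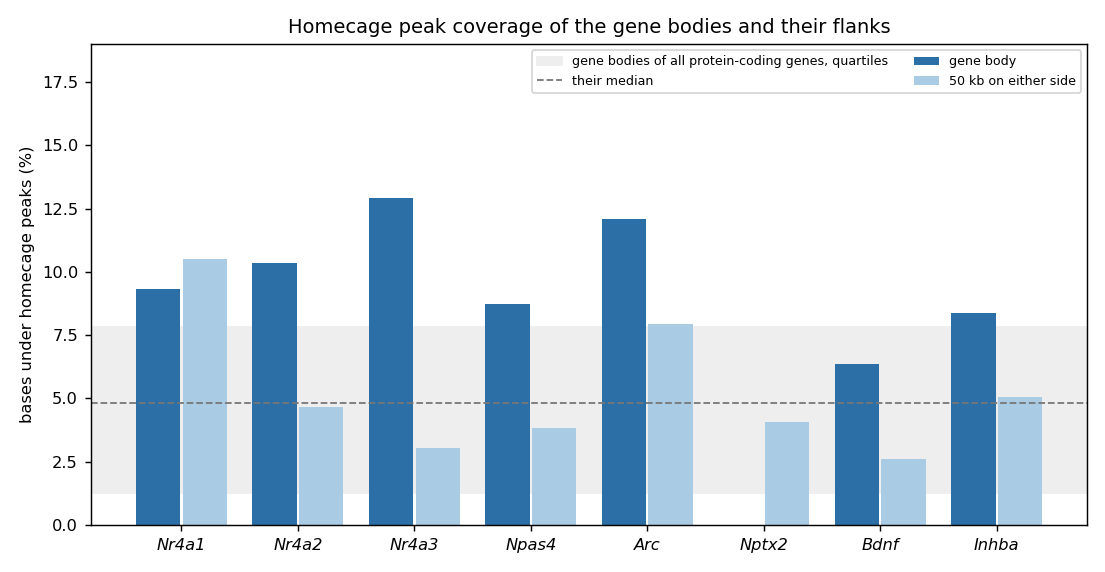
Percentage of bases under homecage peaks in the gene body (dark bars) and in the 50 kb on either side (light bars) of each member, with the median (dashed line) and quartiles (grey band) of gene bodies over all protein-coding genes. The gene body bar exceeds the flank bar in 6 of 8 members, and Nptx2 has a gene body value of 0.

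Pooled over the 8 genes, homecage peaks lay at 212 per Mb in the gene bodies and 124 per Mb in the flanks, where it was close to that of the whole list. The difference was largest at Nr4a3 (12.9% of the gene against 3.03% of the flanks). The learning list had too few peaks for the same comparison, with 2 in 193 kb of gene bodies and 8 in the flanks, or 10.3 and 10.0 per Mb. Per gene, the members had a median of 2.52 homecage peaks per 10 kb of gene body. The median was 1.31 over all protein-coding genes and 1.38 over those of 10 to 60 kb (upper quartiles 1.98 and 1.92).

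A homecage partner was found for 3 of the 10 learning peaks (30%, exact interval 6.67 to 65.2%). Of the whole learning list 43.1% had one, a share inside that interval. These 3 were the peaks inside Nr4a1, over the Nr4a2 start and at the end of Jrk in the Arc window. Both learning peaks in member genes were thus shared, and 7 of the 8 in the flanks were not. The peaks are too few to read a pattern from this split, and its share over all genes was not computed. The 7 unshared peaks lay 502 to 10129 bp from the nearest homecage peak. Over all 9104 unshared learning peaks the median distance was 1486 bp (quartiles 539 and 3579 bp). Requiring that the overlap make up at least 50% of both peaks left only Nr4a2.

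No learning peak of the 8 windows reached 500 bp. Their widths ran from 154 bp near Nr4a3 to 490 bp at Nr4a2, with a median of 325 bp, beside 306 bp for the whole learning list. The homecage peaks ran from 147 to 1643 bp with a median of 353 bp, beside 351 bp for the whole list, and 41 of the 140 reached 500 bp. Most peaks were no longer than the sheared fragments of 200 to 500 bp. The widest homecage peaks in a member gene were those of Inhba (1444 bp), Nr4a3 (1015 bp) and Arc (913 bp). When the homecage list was reduced to its widest 16002 peaks, of 884 bp and more, these 3 genes alone among the members had a homecage peak in the gene body.

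**Figure D4:**
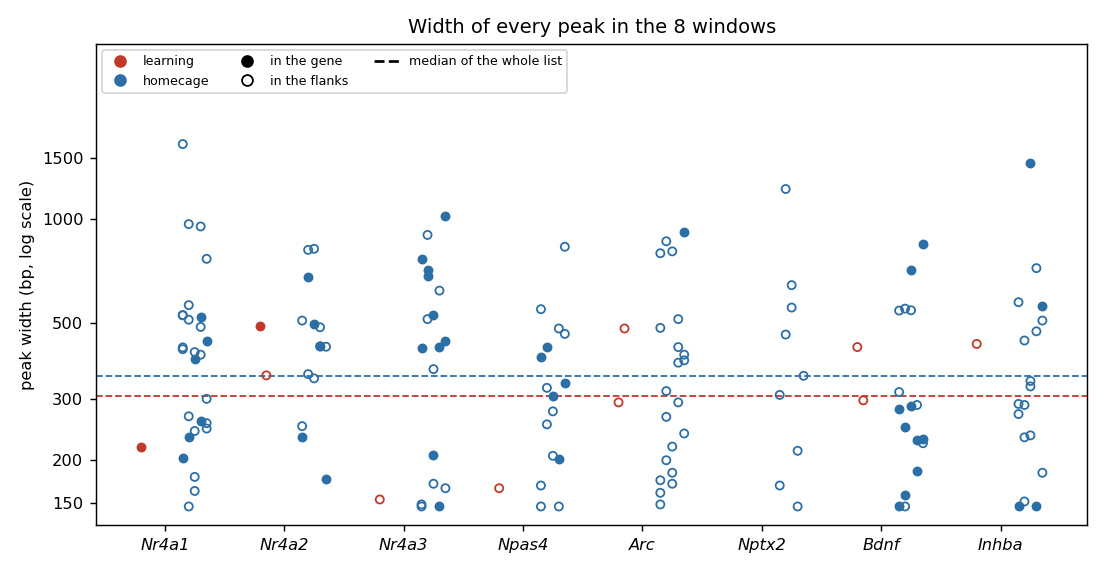
Width of every peak in the 8 windows in bp (y axis, log scale), learning in red and homecage in blue, filled in the gene and open in the flanks, with the median of each whole list as a dashed line. All 10 learning peaks are below 500 bp, and the widest filled points are those of Inhba (1444 bp) and Nr4a3 (1015 bp).

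The members can be set beside 34 other activity-regulated genes, among them the Fos, Jun and Egr families and feedback regulators such as the Dusp phosphatases. In the gene or within 1 kb, 12 of the 34 had a learning peak (35.3%, 95% interval 19.7 to 53.5%) and 28 a homecage peak (82.4%, 65.5 to 93.2%). The shares over all protein-coding genes, 26.9% and 81.7%, lay inside both intervals but are not matched for gene length. These genes are short, with a median of 5731 bp, and length matters for such counts. A learning peak was present at 11.9% of all protein-coding genes under 10 kb, 26.9% of those of 10 to 60 kb and 55.7% of those over 60 kb. In those classes 7 of 23, 4 of 9 and 1 of 2 of the other activity-regulated genes had one, compared with 0 of 1 and 2 of 7 of the members in the shorter classes. For the other activity-regulated genes, the counts under 10 kb and from 10 to 60 kb were above the class shares. This difference was not tested. The widest learning peaks lay in Ier5 (898 bp), Dusp6 (750 bp), Jund (707 bp), Nfil3 (394 bp) and Junb (377 bp). All 5 were wider than the 218 bp peak in Nr4a1, and 3 exceeded the 490 bp peak at Nr4a2. Of the 13 learning peaks in this list, 7 overlapped a homecage peak, against 43.1% of all learning peaks.

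The partner genes of the members were long and many carried a learning peak. The list of 24 held receptors and processing proteins of Bdnf and activin (such as Ntrk2, which encodes TrkB), dimer partners of Npas4 and the Nr4a receptors (Arnt2, Rxrb), pentraxin relatives and upstream regulators (Creb1, Srf and the Mef2 genes). A learning peak was present at 15 of them (62.5%, 40.6 to 81.2%) and a homecage peak at 23 (95.8%, 78.9 to 99.9%). Over all protein-coding genes the shares were 26.9%, below the interval for learning peaks, and 81.7%, inside that for homecage peaks. These shares are not matched for gene length. The list was chosen with earlier results of these data known, so the interval gives no independent support for an excess. Their median length was 40914 bp against 17169 bp for all protein-coding genes. By length class, 1 of 5 under 10 kb, 5 of 8 of 10 to 60 kb and 9 of 11 over 60 kb had a learning peak. Over all protein-coding genes of those classes the shares were 11.9%, 26.9% and 55.7%, and the difference was not tested. The widest learning peaks of the list were in Mef2a (1862 bp), Ntrk2 (1010 bp), Srf (866 bp), Mef2d (838 bp) and Arnt2 (788 bp). Each of these 5 overlapped a homecage peak, but they were picked for their width. Of all 22 learning peaks of the list 16 did so, against 43.1% of the whole learning list. Overlap was not compared at equal width, and the difference was not tested. Ntrk2 had 3 learning peaks in its 327499 bp, and Bdnf had none in its 52344 bp. The whole learning list had 6.01 peaks per Mb, and this contrast is not corrected for gene length.

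The 16 marker genes of hippocampal neurons, glia and vessels had shares near the background and give no check of the tissue label. A homecage peak lay in the gene or within 1 kb at 14 of them (87.5%, background 81.7%) and a learning peak at 5 (31.2%, background 26.9%). Peaks called in whole tissue do not measure which cells were present, and the share of cells behind a peak cannot be told apart from the level per cell.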

How the data were processed

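The authors deposited 1 peak list per antibody library, with chromosome, start, end and peak name. Per the submitters' processing notes, Trimmomatic, BWA and MACS2 were used with mm10, without versions. The deposited peak names give broad calling at p 0.01. Filters, duplicate handling and the use of input are not given in the sources used here. The other 10 libraries (8 single-nucleus, 2 input) were not used here. Titles gave the groups.

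Peaks were made 1-based and set against RefSeq GRCm38.p6 genes, starts and promoters. An overlap of 1 bp counted. A distance is the difference between the nearest coordinates. Background shares were counted over all protein-coding genes, all listed starts or all learning peaks. Intervals are exact (Clopper-Pearson, Poisson) at 95%, treat peaks as independent and cover counting error only. All 8 members were named, with every learning peak and the homecage peaks in the gene, near it or widest. In the other lists, at most the 5 genes with the widest learning peaks were named. Members and lists were chosen with earlier results of these data known. Interval functions were tested on simulated data. Alternatives were other windows, widths, overlaps, merging and shorter lists. Software was Python 3.11.15 (pandas 2.3.3, numpy 2.4.6, scipy 1.17.1; figures with matplotlib 3.10.9).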

Additional observations from a re-analysis of the deposited data

How the results depend on the processing

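No paired analysis was possible because the antibody libraries number 1 per condition. Of 118 recomputed counts, 95 stayed within 1.5 times the reported one, a change of exactly 1.5 times included, and 23 moved further. Some of the 95 could not move. Reducing the homecage list cannot change counts of learning peaks alone, and no single member held enough homecage peaks to move their total that far. The tally is therefore no measure of robustness. With peaks of at least 500 bp, the windows held 0 learning peaks, so 0 were shared and 0 members had one in or near the gene, 41 homecage peaks remained, and 3 other activity-regulated genes had a learning peak. With the homecage list reduced to its widest peaks, the windows held 8 homecage peaks, 0 of them shared, and 3 members, 10 other activity-regulated genes and 14 partner genes had one in or near the gene. Windows of 10 kb held 2 learning and 61 homecage peaks, and windows of 100 kb held 261 homecage peaks with 6 learning peaks shared. A 50% overlap of both peaks left 1 shared learning peak. Counting genes from the listed start left 1 member with a learning peak in or near the gene.

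Leaving out each member in turn gave 8 to 10 learning peaks, 113 to 131 homecage peaks, 2 to 3 shared peaks, 1 to 2 members with a learning peak and 6 to 7 with a homecage peak. The count of 2 members fell to 1 without Nr4a1 or without Nr4a2. Unknown depth and the unequal length of the lists limit every comparison between them.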

Other observations

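The widest peak in any of the 8 windows belonged to a neighbour. A homecage peak of 1643 bp (chr15:101223142-101224784) lay 29118 bp below Nr4a1, across an end of Grasp, which encodes a scaffold protein of metabotropic glutamate receptors, and inside the noncoding RNA gene A330009N23Rik. Another of 964 bp lay inside Grasp. In the Nr4a3 window, a homecage peak of 897 bp (chr4:48125014-48125910) lay inside Stx17, a gene of autophagosome fusion, 38567 bp from Nr4a3. None of these 3 overlapped a learning peak.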
